A study of Mus musculus with 22 samples.

Results

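The genes described here are 10 members of the interleukin-1 (IL-1) and interleukin-6 (IL-6) cytokine systems, namely Il1a, Il1rn, Il1r1 and Il1rap on the IL-1 side and Lif, Il11, Lifr, Osmr, Il6st and Socs3 on the IL-6 side. They were chosen by gene name, without any measured value in the rule, but with earlier results of these data known. All 10 were found among the 52636 genes of the deposited table. Their expression was followed in 22 RNA-seq libraries of mouse duodenal organoids, epithelial cultures grown from intestinal crypts in a matrix, that were left untreated or exposed to cold atmospheric plasma (CAP), an ionized helium jet applied at 50 W for 60 s. All organoids were wild type and came from outbred CD1 mice aged 2 months. The organoid lines, numbered 1 to 4 here, each derive from 1 mouse, so a line stands for a single animal.

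The untreated group had 4 libraries, from lines 1 to 4. Each of the 6 treated groups had 3 libraries, from lines 1, 2 and 4, so line 3 was present only as an untreated culture. Direct CAP means that the organoids themselves were under the jet at day 1, with a change of medium after 30 min or after 24 h. Indirect CAP means that naive organoids grew in medium taken over from a treated culture. Plasma-activated medium (PAM) had met the jet without any organoids in it. Both media were given either from day 1 or from day 2. In the study's description, day 1 cultures got newly made medium and then fresh culture medium from day 2 to day 3. Day 2 cultures got medium made at day 1 and stayed in it until day 3. Starting day, age of the medium and time since exposure therefore cannot be told apart. The study describes 24 h of exposure for these 4 groups, whereas the labels give 30 min for the groups called day 1 here and 24 h for the groups called day 2. Cultures ended at day 3, and it is not certain that this also holds for the direct 30 min group.

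IL-1 alpha and IL-1 beta are alarm cytokines that bind the receptor IL1R1, which then recruits the accessory chain IL1RAP and activates NF-kB, whereas the antagonist IL1RN occupies the receptor without recruiting the accessory chain. Cytokines of the IL-6 family, among them LIF and IL-11, signal through the shared chain gp130, encoded by Il6st, and activate STAT3. For some of them, LIF included but not IL-11, gp130 pairs with a second chain such as LIFR or OSMR. SOCS3 is induced by STAT3 and binds gp130 to shut the signal off, and both systems are known for their part in the response of the gut epithelium to injury.

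Values are given in CP20M, the authors' read count per gene scaled to 20 M (mega) reads per library. They are not divided by gene length, so genes are compared with each other only as CP20M per kb of exon. The deposited totals lay between 20007540 and 20016513 per library, and the reads behind them were estimated at 20 to 28.7 M, so that a value near 10 rests on about as many reads. Values were transformed to log2(value + 1), and differences were tested with limma under a trended variance. A gene was past the threshold at an adjusted p (Benjamini-Hochberg over all genes tested) under 0.01 when its log2 fold change was also 1 or more, or -1 or less. Only genes that reached 10 CP20M in 3 or more of the libraries compared were tested. In bulk RNA, fewer cells that express a gene and less of its RNA per cell cannot be told apart.

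The libraries were epithelial by their markers. The 8 epithelial markers summed to 118766 to 200076 CP20M per library. Of 12 leukocyte markers, Tyrobp reached at most 1, Cd53 at most 2 and Ptprc, the pan-leukocyte gene, at most 12, whereas Csf1r, Cd52 and Laptm5 reached 334, 231 and 125. The 8 fibroblast markers summed to 25 to 138 CP20M, with the defining genes Lum and Dcn at 0 in 22 and 21 of 22 libraries but Pdgfra, Pdgfrb and Postn above 0 in every library (at most 9, 35 and 97). The 5 endothelial markers summed to 38 to 125, with Kdr and Cdh5 at 0 in 19 and 17 libraries and Pecam1, Vwf and Tek above 0 in every library (at most 28, 53 and 104). None of the 2 fibroblast and 3 endothelial markers tested was past the threshold between the 9 libraries exposed for 24 h from day 1 and the untreated ones. In limma's test 2 and 1 of them had an unadjusted p under 0.05, beside 44.1% of all genes tested. The nearest was Tek, with a log2 fold change of 1.73 there (adjusted p = 0.0172) and 2.48 with PAM from day 1 alone (adjusted p = 0.0119).

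The main comparison was between the 4 untreated libraries and the 9 libraries exposed for 24 h from day 1, that is the 3 each of PAM from day 1, indirect CAP from day 1 and direct CAP for 24 h. These 9 libraries came only from lines 1, 2 and 4, each present in all 3 groups, so they stand for 3 mice. The main limma fit had no term for the line. Its SE and p values, and each SD with n = 9, thus treat cultures of the same mouse as separate. Of the 10 members, 9 passed the filter and Osmr did not. Il1rn, Il1r1, Lif and Socs3 were upregulated and Il1rap was downregulated, where 6.34% of the 18490 genes tested were past the threshold (4.27% higher and 2.07% lower). Il1a, Il11, Lifr and Il6st were not past it. The median log2 fold change was 1.05 over the members tested and -0.05 over all genes tested. Since the members were chosen with earlier results of these data known, this is not the contrast of a set chosen blind. For Il1rn, Il1r1, Lif and Socs3 the lowest of the 9 treated libraries was above the highest untreated one, as for 7.16% of genes tested, and for Il1rap and Il6st the highest treated library was below the lowest untreated one, as for 10.5%. In a two-sided exact permutation test of the mean log2(value + 1), done for each of the 10 members without adjustment, these 6 members had p = 0.00280, the smallest that 9 against 4 libraries allow, and Osmr, Il1a, Il11 and Lifr had p = 0.00839, 0.0112, 0.324 and 0.439. This test treats the 13 libraries as exchangeable and ignores that lines 1, 2 and 4 recur in both groups, so its p values are not those of 13 independent mice.

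**Figure D1:**
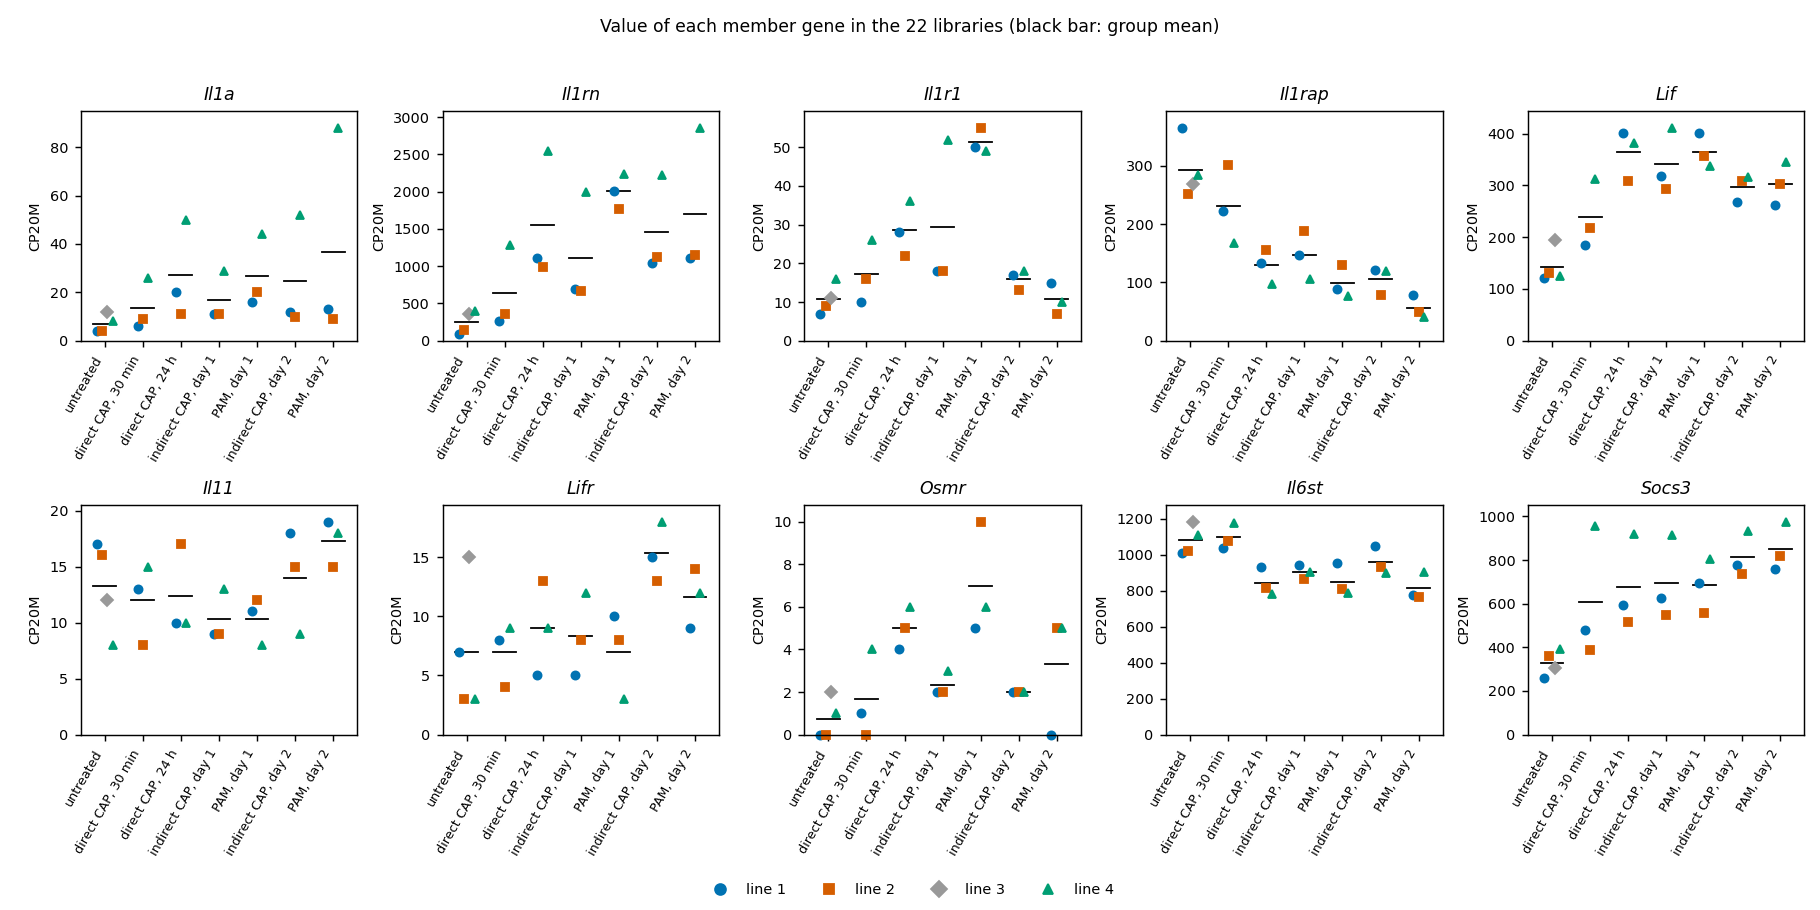
Value in CP20M (vertical axis, linear from 0, one scale per gene) of the 10 members in each of the 22 libraries, by group (horizontal axis); symbols mark the organoid line and the black bar is the group mean. Il1rn goes from 91 to 398 in untreated libraries up to 2854, Il1rap from 252 to 365 down to 40, and line 4 has the highest Il1a, Il1rn and Socs3 value in each of the 6 treated groups.

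Il1a, which encodes the agonist IL-1 alpha (ENSMUSG00000027399, GRCm38 chr2:129299610-129309972, minus strand), was expressed at a low level. It stood at 4, 4, 12 and 8 CP20M in untreated lines 1 to 4. Treated lines 1, 2 and 4 had 20, 11 and 50 after direct CAP for 24 h, 11, 11 and 29 with indirect CAP from day 1 and 16, 20 and 44 with PAM from day 1. Of these 9 values, 6 were above the highest untreated value of 12, and the other 3 were 11. The log2 fold change of 1.53 ± 0.43 (SE) missed the threshold (adjusted p = 0.0145). With the organoid line as a block, which compares cultures that the labels give to the same mouse, it was 1.81 and past the threshold (adjusted p = 0.00105), as were 7.18% of genes in that fit. Here and in the later block fits against untreated, the block rests on the labels of untreated lines 1 and 2. Each of these cultures correlated better with the treated libraries of the other line than with its own. The gene Gm14023 overlaps Il1a on the other strand, and reads of the pair cannot be told apart here, since the use of strand in counting is not given in the sources used here.

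The promoter windows of the members, from 250 bases before to 50 bases after each annotated start, were searched on both strands for the STAT motif TTCNNNGAA, the AP-1 motif TGANTCA and an NF-kB consensus, which 8.30%, 7.81% and 4.51% of all 32851 RefSeq windows of this length held. Counted per gene, since a gene can have several windows, the shares were 9.55%, 8.97% and 5.14% of 27025 genes. Over the 15 windows of the members, 5 of 10 genes had an AP-1 match (Il1a, Il1rn, Lif, Il11 and Osmr), 1 had a STAT match (Socs3) and 1 had an NF-kB match (Il1r1). A match is a run of letters and not a site shown to be bound. Stretches of 100 bases are printed for Il1a, Il1rn, Lif and Socs3, the members with a match upstream of the start and the larger increases among the ligands, the antagonist and the inhibitor, with the match in capitals. That of Il1a is the stretch just before the start (RefSeq, GRCm38.p6, chr2:129309973-129310072, minus strand), with an AP-1 match 12 to 6 bases before the start.
Il1a: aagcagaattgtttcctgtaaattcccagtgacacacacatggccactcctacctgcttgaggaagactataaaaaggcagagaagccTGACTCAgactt

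Il1rn, the IL-1 receptor antagonist (ENSMUSG00000026981, GRCm38 chr2:24336853-24351494, plus strand), had the largest log2 fold change of the members tested in the main comparison. Its level was 91, 148, 364 and 398 CP20M in untreated lines 1 to 4. In lines 1, 2 and 4 it was 1111, 984 and 2551 after direct CAP for 24 h, 691, 664 and 1990 with indirect CAP from day 1 and 2009, 1764 and 2234 with PAM from day 1. The lowest of these 9 values, 664, was above the highest untreated value of 398, while untreated lines 1 and 2 lay well below untreated lines 3 and 4. Means were 250.2 ± 153 (SD, n = 4) and 1555 ± 703 (SD, n = 9). The log2 fold change was 2.72 ± 0.43 (SE, adjusted p = 0.000663), or 6.61-fold on the log2(value + 1) scale.

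Of the 3 annotated starts of Il1rn, 1 had an AP-1 match, which lay 141 to 135 bases before the start and is in capitals in the stretch that runs from 200 to 101 bases before it (RefSeq, GRCm38.p6, chr2:24336660-24336759, plus strand).
Il1rn: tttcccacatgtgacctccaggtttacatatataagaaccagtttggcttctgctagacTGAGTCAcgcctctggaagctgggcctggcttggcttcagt

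Il1r1, the signalling receptor for IL-1 (ENSMUSG00000026072, GRCm38 chr1:40225080-40317257, plus strand), was low in untreated organoids, at 7, 9, 11 and 16 CP20M in lines 1 to 4. In lines 1, 2 and 4 it reached 28, 22 and 36 after direct CAP for 24 h, 18, 18 and 52 with indirect CAP from day 1 and 50, 55 and 49 with PAM from day 1. The lowest treated value of 18 was only just above the highest untreated value of 16. The log2 fold change was 1.61 ± 0.34 (SE, adjusted p = 0.00337). The call was lost without untreated line 1 (1.44, adjusted p = 0.0168), without untreated line 2 (1.55, adjusted p = 0.0136) and after quantile normalization (1.42, adjusted p = 0.0140). The gene Gm38070 overlaps Il1r1 on the same strand.

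Il1rap, the accessory chain of the IL-1 receptor (ENSMUSG00000022514, GRCm38 chr16:26581704-26730117, plus strand), changed in the opposite direction. It stood at 365, 252, 269 and 285 CP20M in untreated lines 1 to 4. The treated cultures of lines 1, 2 and 4 had 133, 156 and 98 after direct CAP for 24 h, 147, 189 and 105 with indirect CAP from day 1 and 89, 129 and 77 with PAM from day 1. None of the 9 values reached the lowest untreated value of 252. The log2 fold change was -1.26 ± 0.21 (SE, adjusted p = 0.000861). The gene Gm20319 overlaps Il1rap on the other strand.

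Per kb of exon, Il1rap was the more abundant receptor chain in untreated organoids, at 25.8 ± 4.40 CP20M per kb (SD, n = 4) against 1.69 ± 0.607 for Il1r1. Among the treated groups, both chains stood close together only with PAM from day 1. There Il1rap was at 8.66 ± 2.40 CP20M per kb and Il1r1 at 8.07 ± 0.505 (SD, n = 3). In every other treated group the mean of Il1rap per kb stayed well above that of Il1r1. The antagonist was above the agonist on this scale, at 45.2 ± 27.7 CP20M per kb for Il1rn and 3.55 ± 1.94 for Il1a in the untreated libraries (SD, n = 4), and at 281 ± 127 and 11.9 ± 7.39 in the 9 treated ones (SD, n = 9).

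**Figure D2:**
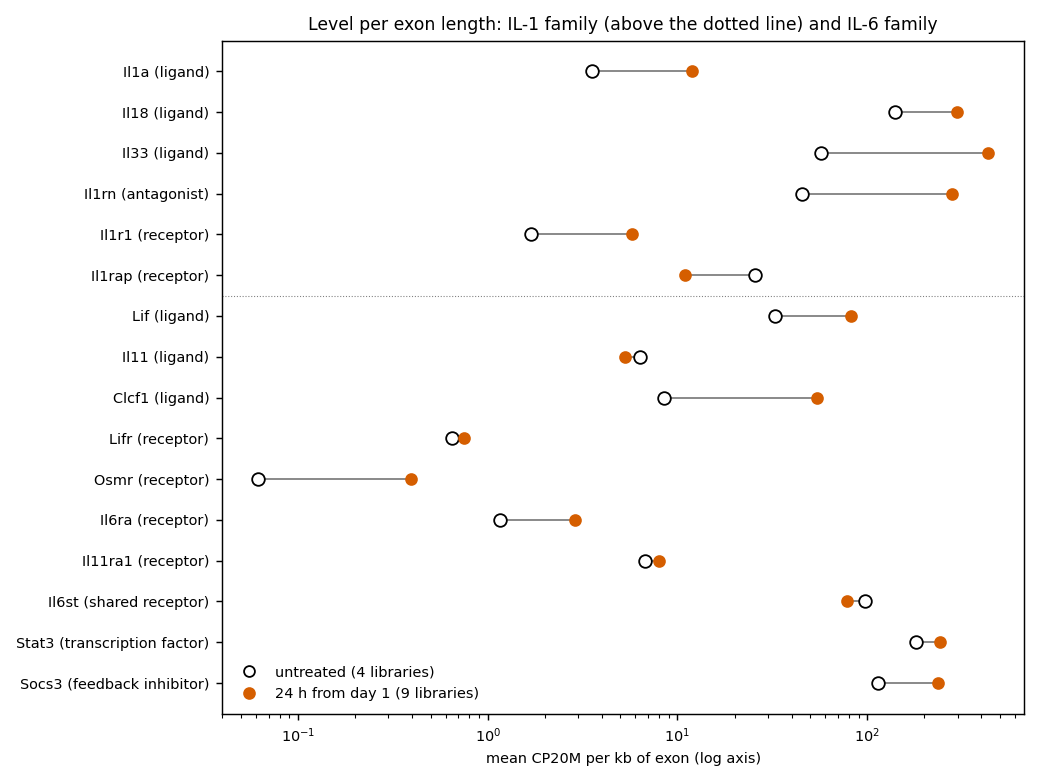
Mean CP20M per kb of exon (horizontal log axis) of the 10 members and 6 relatives in the 4 untreated libraries (open circles) and the 9 libraries exposed for 24 h from day 1 (filled circles). Il6st, at 97.3 untreated, lies far above Lifr at 0.650 and Osmr at 0.0619, and the Il1rap and Il1r1 levels move towards each other.

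Lif, an IL-6 family ligand known for keeping mouse embryonic stem cells undifferentiated (ENSMUSG00000034394, GRCm38 chr11:4257557-4272514, plus strand), had the smallest adjusted p of the members tested in the main comparison. Untreated lines 1 to 4 had 122, 130, 194 and 124 CP20M. Treated lines 1, 2 and 4 had 402, 309 and 382 after direct CAP for 24 h, 319, 294 and 411 with indirect CAP from day 1 and 401, 357 and 337 with PAM from day 1. The lowest treated value, 294, was well above the highest untreated value, 194. Means were 142 ± 34.5 (SD, n = 4) and 357 ± 44.2 (SD, n = 9), with a log2 fold change of 1.34 ± 0.14 (SE, adjusted p = 3.01e-05). An AP-1 match lay 228 to 222 bases before the start of Lif, in capitals in the stretch from 250 to 151 bases before it (RefSeq, GRCm38.p6, chr11:4257318-4257417, plus strand).
Lif: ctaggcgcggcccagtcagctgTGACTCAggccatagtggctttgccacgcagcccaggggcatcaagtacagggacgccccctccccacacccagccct

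Il11, the other IL-6 family ligand among the members (ENSMUSG00000004371, GRCm38 chr7:4772373-4782859, minus strand), was not past the threshold. It ranged from 8 to 17 CP20M in the untreated libraries (median 14) and from 8 to 17 in the 9 treated libraries (median 10), so the groups overlapped fully. The log2 fold change was -0.23, with a 95% confidence interval from -0.76 to 0.31 (adjusted p = 0.514). Per kb of exon, Il11 stood at 5.29 ± 1.32 CP20M per kb in the 9 treated libraries, far below Lif at 82.0 ± 10.2 (SD, n = 9).

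The receptor chains of the IL-6 family were present at very unequal levels. Il6st, the shared chain gp130 (ENSMUSG00000021756, GRCm38 chr13:112464070-112510086, plus strand), had 1011, 1018, 1182 and 1110 CP20M in untreated lines 1 to 4. The values of lines 1, 2 and 4 were 930, 815 and 781 after direct CAP for 24 h, 943, 863 and 906 with indirect CAP from day 1 and 955, 809 and 784 with PAM from day 1. All 9 lay below the lowest untreated value, and the log2 fold change of -0.32 ± 0.08 (SE) had an adjusted p of 0.00707 but was under the fold limit. Lifr, the chain that binds LIF (ENSMUSG00000054263, GRCm38 chr15:7090614-7197489, plus strand), was near the filter limit, with 3 to 15 CP20M in the untreated and 3 to 13 in the 9 treated libraries. Its log2 fold change was 0.34, with a 95% confidence interval from -0.55 to 1.23 (adjusted p = 0.564).

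Osmr, the chain that binds oncostatin M (ENSMUSG00000022146, GRCm38 chr15:6813577-6874969, minus strand), was at 0, 0, 2 and 1 CP20M in untreated lines 1 to 4. In lines 1, 2 and 4 it was 4, 5 and 6 after direct CAP for 24 h, 2, 2 and 3 with indirect CAP from day 1 and 5, 10 and 6 with PAM from day 1. These values are a few reads per library, and the highest untreated value equalled the lowest treated value. Without the filter on low values the log2 fold change of Osmr was 1.77 ± 0.41 (SE) and past the threshold (adjusted p = 0.00776), as were 3.16% of genes then tested.

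Socs3, the inhibitor induced by STAT3 (ENSMUSG00000053113, GRCm38 chr11:117966079-117970047, minus strand), had 259, 360, 304 and 390 CP20M in untreated lines 1 to 4. In lines 1, 2 and 4 it had 593, 516 and 919 after direct CAP for 24 h, 627, 547 and 914 with indirect CAP from day 1 and 697, 555 and 805 with PAM from day 1. Each of the 9 values was above the highest untreated value of 390, with line 4 the highest in each group. The log2 fold change was 1.05 ± 0.17 (SE, adjusted p = 0.000701). It fell under the fold limit without untreated line 1 (0.94), without line 4 after direct CAP for 24 h (0.99) and without line 4 with indirect CAP from day 1 (0.99). The STAT match of Socs3 lay 154 to 146 bases before the RefSeq start, in capitals in the stretch from 200 to 101 bases before it (RefSeq, GRCm38.p6, chr11:117969467-117969566, minus strand). This stretch lies inside the gene span given above, which begins further upstream, at 117970047, so the 2 annotations place the start differently.
Socs3: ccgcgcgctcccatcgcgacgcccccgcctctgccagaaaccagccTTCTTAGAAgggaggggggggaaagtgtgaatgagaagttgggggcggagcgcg

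Next, the treated groups were set against the untreated libraries one at a time. These comparisons share the 4 untreated libraries, so they are not independent of each other and their values are given side by side. After direct CAP for 30 min, 0 of 7 members tested (Il1a, Lifr and Osmr did not pass the filter) were past the threshold in limma's test, where 0.00564% of 17731 genes were past it and 24.9% had an unadjusted p under 0.05. Il1rn was 265, 354 and 1286 CP20M in lines 1, 2 and 4 (log2 fold change 1.23, adjusted p = 0.277), and Socs3 was 480, 387 and 955 (0.79, adjusted p = 0.150). Line 4 stood well above lines 1 and 2 for both genes. Lif was 185, 218 and 312 (0.73, adjusted p = 0.119). Lif and Socs3 were the 2 members with an unadjusted p under 0.05, at 0.0117 and 0.0247.

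After direct CAP for 24 h, 8 members passed the filter, all but Lifr and Osmr. Lif was upregulated (log2 fold change 1.37 ± 0.19 SE, adjusted p = 0.00485) and Il1rap was downregulated (-1.19 ± 0.20, adjusted p = 0.00777), where 2.17% of genes were past the threshold (1.25% higher and 0.917% lower). Il1rn had a larger log2 fold change, 2.74 ± 0.55 SE, but its adjusted p was 0.0138. With the line as a block, Il1rn was past the threshold (3.0, adjusted p = 0.00222) and Il1rap was not (-1.22, adjusted p = 0.0167), in a fit that called 2.02% of genes. Both calls were lost without untreated line 1, 2 or 4 or without treated line 1 or 4, and that of Il1rap also without untreated line 3 (adjusted p from 0.0144 to 0.0229 for Lif and from 0.0163 to 0.0260 for Il1rap). When only an adjusted p under 0.05 was asked for, 6 members passed, beside 17.3% of genes.

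With indirect CAP from day 1, 8 members were tested and Lif was the only one past the threshold (log2 fold change 1.27 ± 0.20 SE, adjusted p = 0.00783), as 1.31% of genes were (0.831% higher and 0.477% lower). That call was lost without untreated line 1, 2 or 4 and without each of the 3 treated libraries (adjusted p from 0.0171 to 0.0261). Il1rn, at 2.20 (adjusted p = 0.0317), passed with the line as a block (2.46, adjusted p = 0.00424), where 1.81% of genes did. Socs3 stood at 1.06 (adjusted p = 0.0126) and Il1rap at -1.01 (adjusted p = 0.0171). An adjusted p under 0.05 alone was met by 4 members and 20.6% of genes.

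With PAM from day 1, 5 of 8 members tested were past the threshold, as were 10.2% of genes (4.83% higher and 5.40% lower). Il1rn (log2 fold change 3.24, adjusted p = 0.00127), Il1r1 (2.21, adjusted p = 0.000896), Lif (1.37, adjusted p = 0.000808) and Socs3 (1.06, adjusted p = 0.00213) were upregulated, and Il1rap (-1.58, adjusted p = 0.000749) was downregulated. The lines lay close together for Il1rn and Il1r1 in this group, unlike in the other day 1 groups, where line 4 stood apart for Il1rn. With the line as a block Il1a passed too (2.05, adjusted p = 0.00889) and Socs3 did not (1.03, adjusted p = 0.0102), where 7.81% of genes passed. Socs3 was also under the fold limit without untreated line 1 (0.95) or without line 4 with PAM (0.94).

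**Figure D3:**
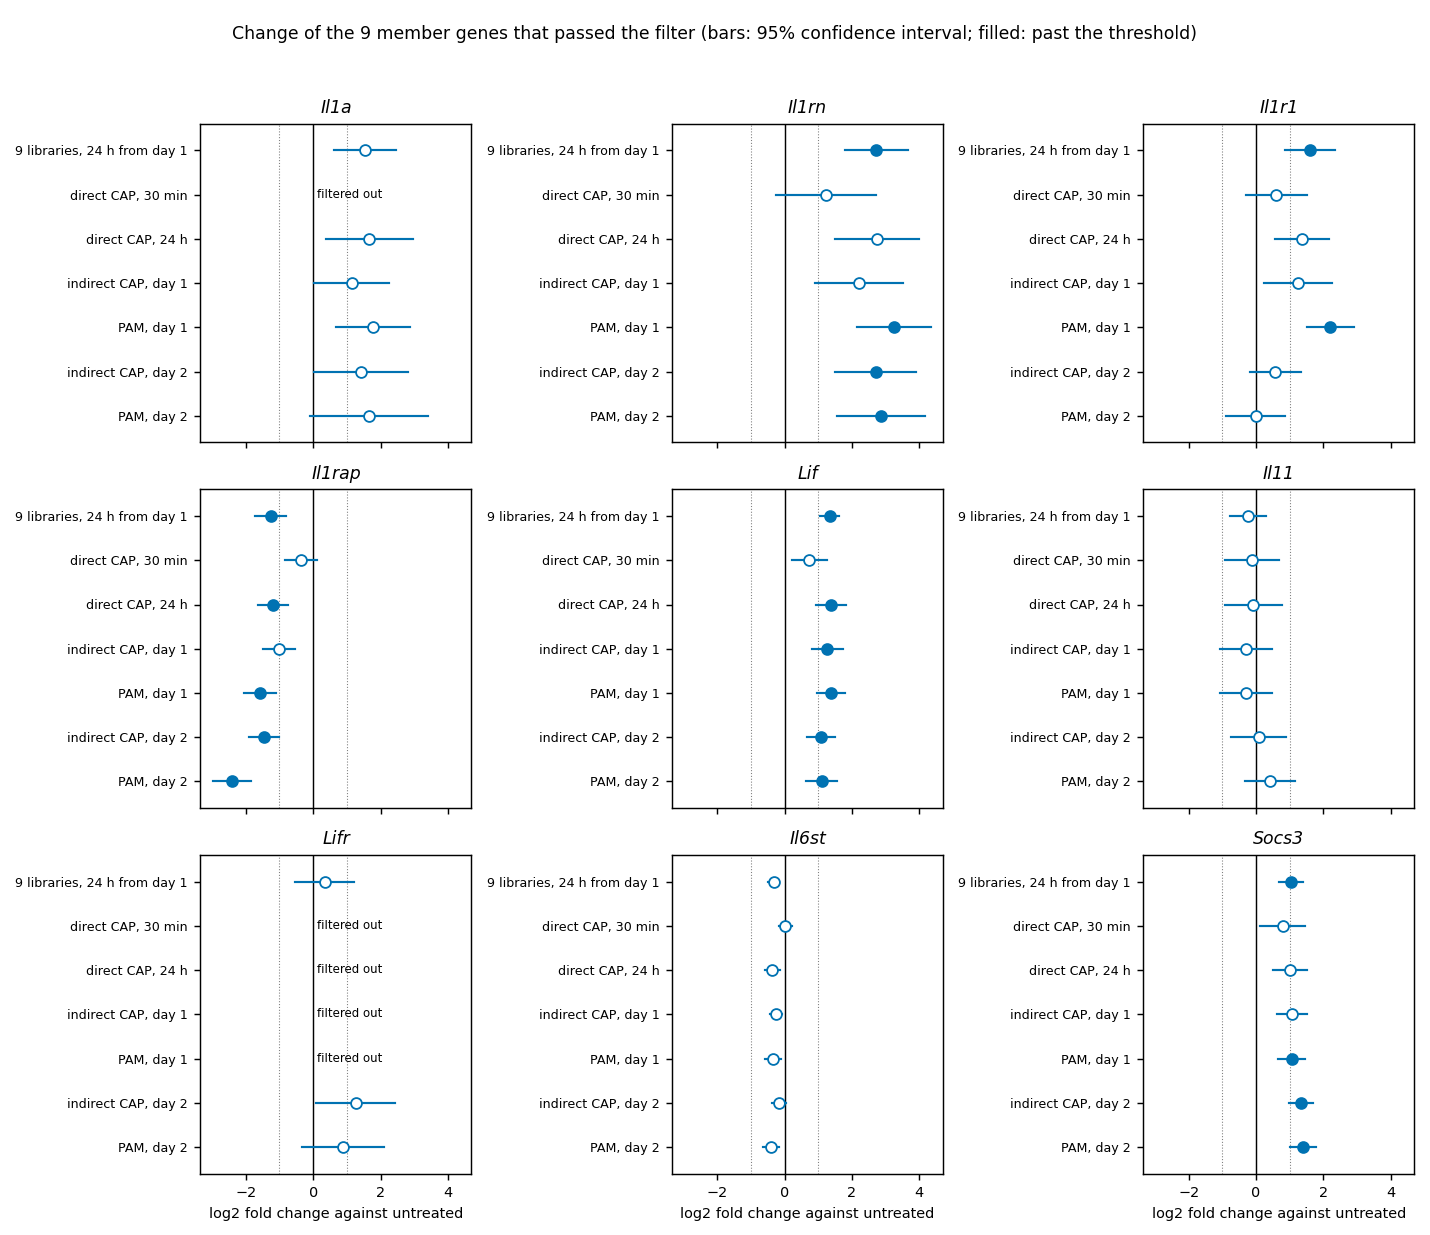
Log2 fold change against the 4 untreated libraries (horizontal axis) of the 9 members that passed the filter in the main comparison, for the 9 libraries exposed for 24 h from day 1 and for each treated group (vertical axis). Bars are 95% confidence intervals, filled circles are past the threshold and dotted lines mark a log2 fold change of 1 either way; Il1r1 is past it with PAM from day 1 (2.21) and stands at -0.01 with PAM from day 2.

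With indirect CAP from day 2, 4 of 9 members tested were past the threshold, as were 11.9% of genes (6.20% higher and 5.71% lower). Il1rn (log2 fold change 2.71, adjusted p = 0.00407), Lif (1.08, adjusted p = 0.00211) and Socs3 (1.32, adjusted p = 0.000382) were upregulated and Il1rap (-1.46, adjusted p = 0.000715) was downregulated. Their levels in lines 1, 2 and 4 were 1044, 1126 and 2224 CP20M for Il1rn, 268, 308 and 316 for Lif, 777, 738 and 932 for Socs3 and 121, 79 and 120 for Il1rap. The Il1rn call was lost without untreated line 2, treated line 1 or treated line 4 (adjusted p from 0.0102 to 0.0159), and the Lif call without treated line 4 (1.03, adjusted p = 0.0101).

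With PAM from day 2 the same 4 of 9 members tested were past the threshold, where 17.3% of genes were (6.82% higher and 10.5% lower). The log2 fold changes were 2.87 for Il1rn (adjusted p = 0.00443), 1.10 for Lif (adjusted p = 0.00327), 1.38 for Socs3 (adjusted p = 0.000606) and -2.41 for Il1rap (adjusted p = 0.000411). Their levels in lines 1, 2 and 4 were 1108, 1153 and 2854 CP20M for Il1rn, 263, 302 and 346 for Lif, 760, 820 and 975 for Socs3 and 78, 50 and 40 for Il1rap, the lowest group mean of that gene. The Il1rn call was lost without untreated line 2, treated line 2 or treated line 4 (adjusted p from 0.0103 to 0.0150), and the Lif call without untreated line 1, 2 or 4 or treated line 2 (adjusted p from 0.0109 to 0.0120).

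Il1a, Il1r1, Il11, Il6st and Lifr were not past the threshold in the day 2 groups. Il1a stood at 12, 10 and 52 CP20M with indirect CAP and 13, 9 and 88 with PAM in lines 1, 2 and 4, and its log2 fold changes of 1.42 and 1.66 had adjusted p values of 0.0924 and 0.104. Line 4 alone was far above the untreated range of 4 to 12. Il6st was 1048, 932 and 896 with indirect CAP and 774, 764 and 905 with PAM (-0.17 and -0.41, adjusted p = 0.155 and 0.0145). Lifr was 15, 13 and 18 with indirect CAP, against 9, 14 and 12 with PAM (1.27 and 0.89, adjusted p = 0.0767 and 0.195). Il11 was 18, 15 and 9 with indirect CAP, against 19, 15 and 18 with PAM (0.07 and 0.41, adjusted p = 0.884 and 0.326), values that overlapped the untreated range of 8 to 17. Osmr was not tested and stood at 2, 2 and 2 with indirect CAP and 0, 5 and 5 with PAM.

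Il1r1 stood at different levels with PAM from day 1 and from day 2, groups that differ also in medium age and time since exposure. It was 50, 55 and 49 CP20M from day 1 and 15, 7 and 10 from day 2 in lines 1, 2 and 4, and the day 2 values lay within the untreated range of 7 to 16. All 3 day 2 values were below all 3 day 1 values, as for 16.9% of genes tested, with a log2 fold change of -2.22 ± 0.33 (SE). The adjusted p of this comparison in limma's test was 0.0503, when 0% of 17354 genes were past the threshold and 26.8% had an unadjusted p under 0.05. When all 7 groups were fitted together, Il1r1 was past it (adjusted p = 0.00108), as were 4.55% of genes in that fit.

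With indirect CAP, Il1r1 was 18, 18 and 52 CP20M from day 1 and 17, 13 and 18 from day 2 in lines 1, 2 and 4, with the larger drop in line 4 (log2 fold change -0.67, 95% confidence interval from -1.70 to 0.37, adjusted p = 0.430), where 0.0111% of genes were past the threshold and 21.7% had an unadjusted p under 0.05. Whether the difference between days was unlike in the 2 media was not tested.

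**Figure D4:**
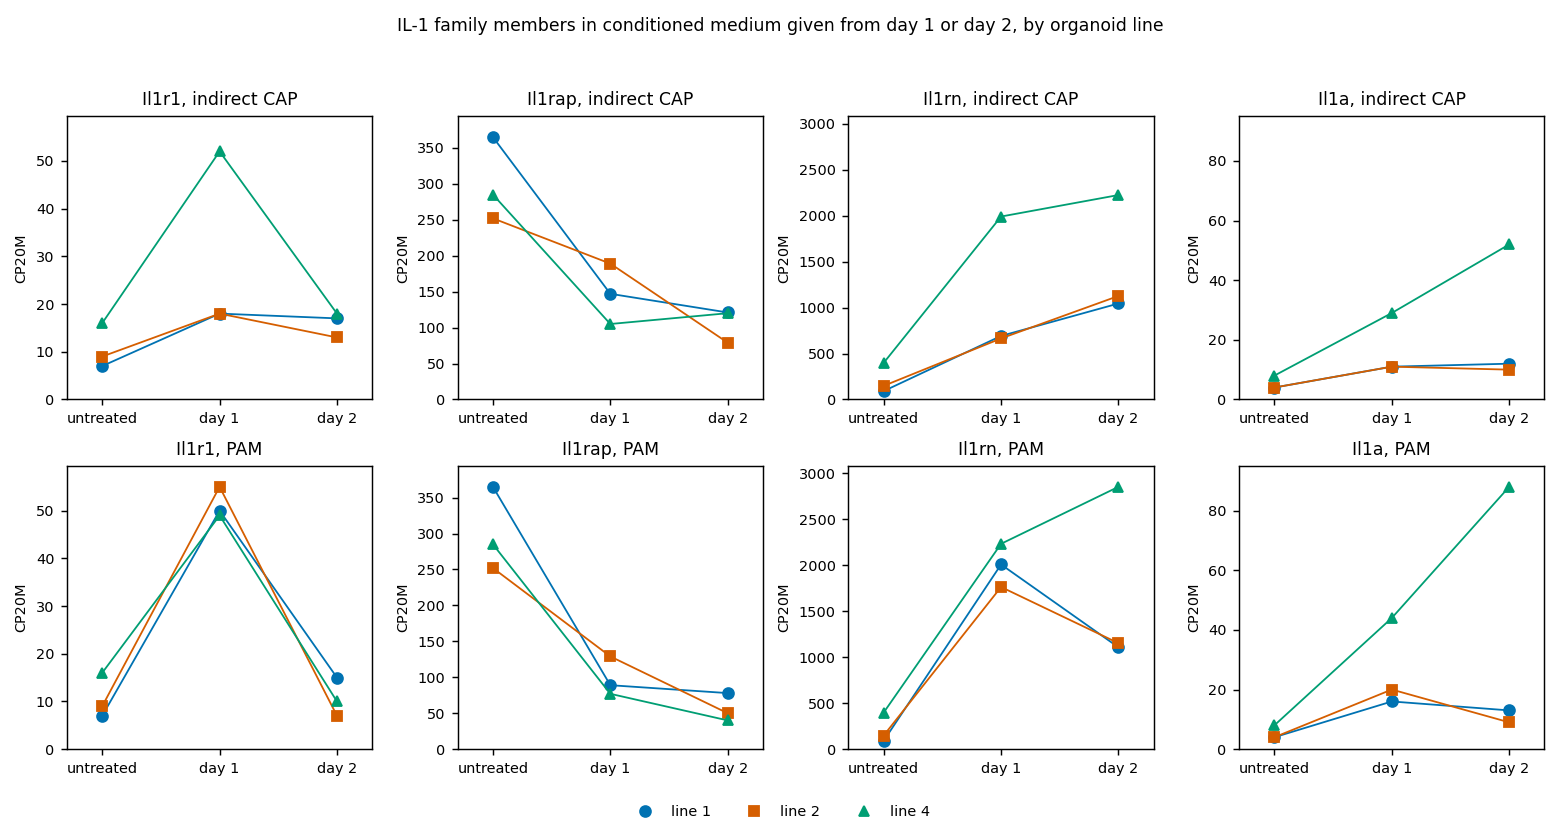
CP20M (vertical axis, linear from 0, same scale for a gene in both rows) of Il1r1, Il1rap, Il1rn and Il1a in untreated cultures and in cultures given indirect CAP medium (upper row) or PAM (lower row) from day 1 or day 2; points are separate cultures joined by organoid line, without error bars. Il1r1 stands at 49 to 55 with PAM from day 1 and at 7 to 15 with PAM from day 2, and Il1a reaches 88 in line 4.

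No other member was past limma's threshold between day 1 and day 2. At an unadjusted p under 0.05 stood 2 of 9 members between the PAM groups (Il1r1 and Il1rap), beside 26.8% of all genes tested. Between the indirect CAP groups it was 1 of 9 (Lifr), beside 21.7% of genes, so these counts do not set the members apart. Il1rap had a log2 fold change of -0.82 from PAM at day 1 to PAM at day 2 (95% confidence interval from -1.60 to -0.05, adjusted p = 0.168). Il1rn differed by -0.37 between the PAM groups (interval from -1.22 to 0.47) and by 0.51 between the indirect CAP groups (interval from -0.62 to 1.63). These intervals are wide, so the members are not shown to be equal between days.

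A pair of low members did not overlap between days. Il11 was 11, 12 and 8 CP20M with PAM from day 1 and 19, 15 and 18 from day 2 in lines 1, 2 and 4, but the log2 fold change of 0.70 had an adjusted p of 0.198, and 16.2% of genes were likewise higher without overlap. Lifr was 5, 8 and 12 with indirect CAP from day 1 and 15, 13 and 18 from day 2 (0.87, adjusted p = 0.213), beside 12.1% of genes.

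Between direct CAP for 24 h and for 30 min, 0% of 17668 genes were past the threshold in limma's test, although 21.4% of genes and 4 of 8 members tested (Il1rn, Il1rap, Lif and Il6st) had an unadjusted p under 0.05. Il1rap and Il6st were lower at 24 h without overlap, as were 20.6% of genes. In lines 1, 2 and 4 Il1rap went from 222, 302 and 168 to 133, 156 and 98 CP20M (log2 fold change -0.82, adjusted p = 0.205), and Il6st from 1038, 1078 and 1174 to 930, 815 and 781 (-0.38, adjusted p = 0.205). Il1rn had a log2 fold change of 1.51 (adjusted p = 0.220), and with the line as a block it was the only member past the threshold (adjusted p = 0.00467), as were 1.13% of genes in that fit.

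In the order of group means, Il1rn was highest with PAM from day 1 (2002 ± 235 CP20M, SD, n = 3), followed by PAM from day 2 (1705 ± 995), direct CAP for 24 h (1549 ± 870.4), day 2 indirect CAP (1465 ± 659), day 1 indirect CAP (1115 ± 758), direct CAP for 30 min (635 ± 566) and untreated. No neighbours in this order differed by more than the larger of their SDs. For Il1r1, PAM from day 1 (51.3 ± 3.21) stood above indirect CAP from day 1 (29.3 ± 19.6) by more than the larger SD, although the ranges overlapped, and for Il1rap, PAM from day 2 (56 ± 19.7) stood below PAM from day 1 (98.3 ± 27.2) in the same way. For Socs3 the means ran from 852 ± 111 with PAM from day 2 to 607 ± 305 with direct CAP for 30 min and 328 ± 58.3 untreated, with no neighbours further apart than the larger SD.

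The lines differed for some members and not for others. Line 4 was the highest library in 6 of 6 treated groups for Il1a, Il1rn and Socs3, in 4 of 6 for Il1r1 and Lif, and in 0 for Il1rap. Untreated line 4 was already above untreated lines 1 and 2 for Il1a (8 against 4 and 4 CP20M) and Il1rn (398 against 91 and 148). The same held for Socs3 (390 against 259 and 360) and Il1r1 (16 against 7 and 9), but not for Lif (124 against 122 and 130). A stronger response of line 4 was not tested, and the share of all genes with this order was not computed. For Il1a the 6 treated libraries of line 4 ranged from 26 to 88 CP20M (median 47), against 6 to 20 in line 1 (median 12.5) and 9 to 20 in line 2 (median 10.5). Set against the untreated culture of its own line, Il1a, Il1rn, Lif and Socs3 were each higher in 18 of 18 treated libraries, and Il1rap was lower in 17 of 18, the exception being line 2 after direct CAP for 30 min. This rests on the labels of the untreated cultures of lines 1 and 2, each of which correlated better with the treated libraries of the other line than with its own. The counts share 3 untreated cultures, each set against 6 treated libraries, so they are not 18 independent outcomes. The share of all genes with such counts was not computed. Lines 1 and 2 came from male mice and line 4 from a female, and their passages in the labels were 12, 14 and 4, so animal, sex and passage cannot be told apart.

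As a description across the 22 libraries, which share lines and groups, the 3 genes most like each member were looked up among 13196 genes with a mean of 50 CP20M or more (Pearson correlation of log2(value + 1), without a test). Il1rn was most like Basp1, F3 and Rab31 (r = 0.978, 0.977 and 0.970), and Il1rap was most like Cdca7, Sephs1 and Vgll4 (0.971, 0.964 and 0.962). Il1r1 was most like Ap1s3, Gm26892 and Chp1 (0.948, 0.944 and 0.943), and Il1a like A430105I19Rik, Anxa7 and BC022687 (0.938, 0.930 and 0.926). Lif was most like Ncmap, Grhl3 and Dsg3 (0.941, 0.936 and 0.935), and Socs3 like Gabbr1, B4galt2 and Ifnlr1 (0.945, 0.936 and 0.928). For the other members the closest genes were Ubxn7 for Il6st (0.869), Gml2 for Osmr (0.864), Vcpip1 for Lifr (0.746) and Gm27937 for Il11 (0.679).

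The rest of the IL-1 family was examined through lists of genes that are not members. Of 9 further ligands and decoys, 5 were tested and 2 were upregulated in the main comparison. Il33, a nuclear alarmin, rose from 165 ± 111 (SD, n = 4) to 1249 ± 903 CP20M (SD, n = 9), with a log2 fold change of 3.09 (adjusted p = 0.00933). Il18, an epithelial cytokine released after inflammasome activation, rose from 144 ± 54.4 to 305 ± 71.0 (1.10, adjusted p = 0.00181). Neither gene was past the threshold with direct CAP for 24 h, PAM from day 1 or PAM from day 2 alone. The adjusted p values in that order were 0.0739, 0.0176 and 0.143 for Il33 and 0.0126, 0.0164 and 0.623 for Il18. With PAM from day 2 the log2 fold change of Il18 was 0.24. Il1b did not exceed 2 CP20M in any library, the decoy receptor Il1r2 did not exceed 1, and Il1rl1, the receptor for IL-33, did not exceed 5.

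Of 6 further IL-1 family receptors, 3 were tested and 0 were past the threshold in limma's test, with 2 at an unadjusted p under 0.05, as 44.1% of all genes tested were. The threshold was likewise passed by 0 of 12 genes of IL-1 receptor signalling (5 at an unadjusted p under 0.05) and by 0 of 11 NF-kB subunits, inhibitors and feedback targets (6). Irak2, a kinase of the receptor complex that was singled out after its values were seen, was under the fold limit in the main comparison (0.74, adjusted p = 0.00168) and upregulated with indirect CAP and PAM from day 2 (1.09 and 1.29, adjusted p = 0.00135 and 0.00215). Tollip, of the same list and likewise named after its values were seen, was also upregulated with PAM from day 2 (1.09, adjusted p = 0.000761). There 6.82% of genes were past the threshold as higher.

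On the IL-6 side, 3 of 9 further ligands were tested and Clcf1 was upregulated. Clcf1, a ligand that signals through gp130 and LIFR, ranged from 8 to 55 CP20M in the untreated and from 109 to 388 in the 9 treated libraries, without overlap (log2 fold change 2.81 ± 0.41 SE, adjusted p = 0.000358). It was also past the threshold with PAM from day 1 (3.10) and day 2 (3.24) and with indirect CAP from day 2 (2.93). Il6 and Osm did not exceed 1 CP20M in any library. Of 5 further receptors, 2 were tested, and Il6ra, which binds IL-6, rose from 10 ± 4.24 to 24.9 ± 8.64 CP20M (1.24, adjusted p = 0.00705), while Il11ra1, which binds IL-11, was 30.2 ± 11.8 and 35.9 ± 11.4 (adjusted p = 0.497).

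Of 18 genes of JAK-STAT signalling and its inhibitors outside the members, 0 were past the threshold in the main comparison with limma, and 10 had an unadjusted p under 0.05, beside 44.1% of all genes tested. Stat3, the transcription factor downstream of gp130, was 1719 ± 103 CP20M in the untreated and 2299 ± 269 in the 9 treated libraries, and its log2 fold change of 0.41 (adjusted p = 0.00408) was under the fold limit. Of 10 known STAT3 target genes, 9 were tested and Ccnd1, which encodes cyclin D1, was upregulated (1.04, adjusted p = 0.00107). Of the others, named after their values were seen, Junb and Bcl3 were under the fold limit (0.93 and 0.93), and the antimicrobial lectin Reg3g had a log2 fold change of -2.23 (adjusted p = 0.0250). The list looked different with PAM from day 2, where Ccnd1 stood at -0.36 (adjusted p = 0.502) and Reg3g at -1.23 (adjusted p = 0.122). There Pim1, Bcl3 and Junb were upregulated (1.23, 1.13 and 1.24, adjusted p = 0.00954, 0.00327 and 0.000434), beside 6.82% of genes.

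Some cell type markers moved in the same libraries as the members. Of all genes tested in the main comparison, 4.27% were past the threshold as higher and 2.07% as lower. In limma's test 44.1% had an unadjusted p under 0.05. The 5 intestinal stem cell markers summed to 32557 to 38876 CP20M in the untreated libraries, 1306 to 15040 in the 9 treated libraries of the main comparison and 757 to 3953 in the day 2 groups, and 4 of them were downregulated in the main comparison. The 5 Paneth cell markers summed to 21624 to 30627 in the untreated and 3742 to 18670 in the 9 treated libraries, without overlap, and 2 of them were downregulated. The epithelial markers summed to 118766 to 128906 in the untreated and 140734 to 195885 in the 9 treated libraries, again without overlap, with 0 of 8 past the threshold in limma's test and 8 at an unadjusted p under 0.05. The 12 leukocyte markers summed to 333 to 399 in the untreated and 426 to 593 in the 9 treated libraries, with 3 tested and Laptm5 upregulated (1.98, adjusted p = 0.00678), while Tyrobp and Cd53 were at 0 in 18 and 18 of 22 libraries. Other sums overlapped between the untreated and the 9 treated libraries. Enterocyte markers summed to 87118 to 105757 and 68043 to 138698, and goblet cell markers to 73232 to 129624 and 76029 to 179321. The enteroendocrine and tuft cell sums overlapped as well. The part of the marker shifts in the changes of the members was not tested.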

How the data were processed

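RNA of 22 organoid cultures was sequenced as paired reads of 100 bases. Per the labels and the study's methods, the authors trimmed reads with Trimmomatic 0.36, aligned them to GRCm38.p4 with STAR 2.5.3a and counted genes of Ensembl 90 with HTSeq 0.9.1. They deposited a score per gene, CP20M, which is the read count scaled to 20 M (mega) per library and rounded up. The study defines CP20M per kb, but the deposited scores are not divided by length. The study tested raw counts with edgeR, which were not used here.

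The members and gene lists were chosen with earlier results of these data known. Scores were tested as log2(value + 1) with limma 3.58.1 (trended variance, R 4.3.3), fitting only the groups compared, over genes that reached a score of 10 in 3 or more libraries, with Benjamini-Hochberg adjustment over all genes tested. The script was tested on simulated data. The text names all members, list genes past the threshold in the main comparison (at most 5 per list, by adjusted p), the ligands and receptors Il1b, Il18, Il33, Il1r2, Il1rl1, Il6, Osm, Clcf1, Il6ra and Il11ra1, Stat3 and the 3 genes most like each member. Exon lengths came from GENCODE vM21, where 52489 of 52636 genes matched, and promoter windows from RefSeq.

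Libraries with the same number came from the same organoid line, hence the same mouse. Deviations from group means correlated at a median r of 0.536 within lines and -0.306 between lines, although untreated line 1 correlated at 0.0751 with treated line 1 and 0.541 with treated line 2, and untreated line 2 at 0.132 with treated line 2 and 0.353 with treated line 1. Scaled totals hide depth, which was estimated from gaps between low values. Alternatives were another scaling, pseudocount, filter, threshold, fit of all groups, a block for the line, and leaving out each library.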

Additional observations from a re-analysis of the deposited data

Results flagged for a closer look

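For each member, the 4 untreated libraries and the 9 libraries exposed for 24 h from day 1 were examined for a value far from the rest. Of these 20 sets, 2 were marked. Chance marks about 1 in 20 sets of independent values from a single group, which the 9 libraries are not, since they mix treatments and repeat lines. Lif stood at 194 CP20M in untreated line 3, against 122 to 130 in the other 3 untreated libraries. Osmr stood at 10 CP20M in line 2 with PAM from day 1, against 2 to 6 in the other 8 libraries exposed for 24 h from day 1.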

How the results depend on the processing

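Of 84 results, each a member's log2 fold change in 1 comparison, the alternatives other than leaving out a library gave 478 values with the same direction and side of the threshold, 19 newly past it, 3 no longer past it and 4 of opposite sign. Those 4 were Il11 with indirect CAP from day 2 (-0.30 after quantile normalization), Il6st between the PAM groups (0.0091, likewise), Il1a between the PAM groups (0.00799 with a pseudocount of 10) and Il1r1 with PAM from day 2 (0.017 with the line as a block); the cause was not tested. Leaving out a library gave 545 values with the same call, 35 no longer past the threshold and 24 of opposite sign, all 24 in results that were not past it.

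Log2 fold changes whose sign changed without 1 library ranged as follows. With direct CAP for 30 min, Il11 ranged from -0.33 to 0.12 and Il6st from -0.027 to 0.067. Il11 ranged from -0.32 to 0.044 with direct CAP for 24 h and from -0.13 to 0.34 with indirect CAP from day 2. Il1r1 ranged from -0.27 to 0.23 with PAM from day 2. Between the direct CAP groups, Il11 ranged from -0.21 to 0.21 and Socs3 from -0.047 to 0.60. Il1a ranged from -0.45 to 0.71 between the indirect CAP groups and from -1.09 to 0.48 between the PAM groups, where Il6st ranged from -0.14 to 0.028.

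The number of members past the threshold ranged, when 1 library was left out, from 3 to 5 in the main comparison (3 without untreated line 1), 0 to 2 with direct CAP for 24 h (0 without untreated line 1, 2 or 4 or treated line 1 or 4, and 1 without untreated line 3), 0 to 1 with indirect CAP from day 1 (0 without untreated line 1, 2 or 4 or any treated library), 2 to 4 with indirect CAP from day 2 (2 without its line 4) and 2 to 4 with PAM from day 2 (2 without untreated line 2 or its line 2). When the adjusted p alone was required to be under 0.05, it was 6 in place of 2 with direct CAP for 24 h and 4 in place of 1 with indirect CAP from day 1. When all 7 groups were fitted together it was 1 in place of 0 between the PAM groups.

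With the line as a block, which pairs libraries that the labels give to the same mouse, the number was 2 in place of 1 with indirect CAP from day 1 and 1 in place of 0 between the direct CAP groups. Beyond the changes given beside the results (Il1a, Il1rn, Il1rap and Socs3), the block changed no other call. With 3 libraries a group, the smallest exact p is 0.0571 against 4 libraries and 0.1 against 3, so single groups rest on the variance shared across genes. Members under about 20 CP20M (Il11, Lifr, Osmr, untreated Il1a and Il1r1) rest on few reads, where counting error is large. Quantile normalization moved the median over all genes tested, as log2 fold change with PAM from day 2, from -0.12 to 0.000267.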
